A study of Homo sapiens with 22 samples.

Results

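The genes described here are the expressed metallothioneins MT1E, MT1F, MT1G, MT1X and MT2A, the zinc-sensing transcription factor MTF1 and the zinc exporter SLC30A1. They were chosen by name, with earlier results of these data known, and all 7 were among the 20411 genes of each expression table. The shares of all genes given beside their counts are therefore a description and not a test. The study treated acute myeloid leukemia cells with FP54, a degrader that carries the RNA demethylase FTO to an E3 ubiquitin ligase, and this account uses its RNA-seq of polyadenylated RNA. MOLM-13 cells, a monocytic line with an MLL fusion, and NB4 cells, a promyelocytic line with the PML-RARA fusion, were both labelled wild type and were cultured with 2 μM FP54 or with DMSO, the solvent, for 48 h. Each line had 3 DMSO and 3 FP54 libraries, which makes 12 of the 22 samples of the series, and the other 10 (m6A-seq and polysome sequencing of MOLM-13) were not analysed here. The labels do not say whether the replicates were separate cultures, so the p-values measure the spread between these libraries, which may be technical. Each line stands for 1 genetic background, and these groups include no inactive control compound. The cell line of each table was taken from the table's name.

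Metallothioneins are small cysteine-rich proteins that bind zinc and copper in the cytoplasm and also cadmium when cells meet it. When free zinc rises, MTF1 binds short metal response elements in the promoters of metallothionein genes and of SLC30A1, whose product pumps zinc out of the cell, so the transcripts of these targets serve as a common readout of zinc load. Metallothionein genes also respond to glucocorticoids and oxidative stress, and MTF1 itself is mainly controlled through its protein rather than through its transcript level.

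The 5 metallothionein genes lie together on chromosome 16 within 75.6 kb (hg38, 56608584 to 56684196), in the order MT2A (56608584 to 56609497), MT1E (56625475 to 56627112), MT1F (56657731 to 56660698), MT1G (56666730 to 56668065) and MT1X (56682470 to 56684196), with MT1G alone on the minus strand. MTF1 (37809574 to 37859592) and SLC30A1 (211571568 to 211579161) are both on the minus strand of chromosome 1. The promoter table, from RefSeq (GRCh38.p14), held 4 of the 7 genes, MT1X, MT2A, MTF1 and SLC30A1. The 250 bases upstream of each start were searched on both strands for the core of the metal response element, spelled TGCACNC or TGCGCNC, which do not overlap each other in any match found here. The upstream sequences of the metallothioneins with the 2 largest responses, and of the exporter, are given 5′ to 3′ on the gene's own strand, with the matches in capitals, MT1X at chr16:56682220-56682469 (plus strand), MT2A at chr16:56608334-56608583 (plus strand) and SLC30A1 at chr1:211579162-211579411 (minus strand).
MT1X: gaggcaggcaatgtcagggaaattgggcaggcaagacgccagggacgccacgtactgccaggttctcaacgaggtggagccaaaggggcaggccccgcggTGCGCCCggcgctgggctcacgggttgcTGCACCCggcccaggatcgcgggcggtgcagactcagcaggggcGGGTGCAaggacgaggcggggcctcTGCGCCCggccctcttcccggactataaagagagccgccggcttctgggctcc
MT2A: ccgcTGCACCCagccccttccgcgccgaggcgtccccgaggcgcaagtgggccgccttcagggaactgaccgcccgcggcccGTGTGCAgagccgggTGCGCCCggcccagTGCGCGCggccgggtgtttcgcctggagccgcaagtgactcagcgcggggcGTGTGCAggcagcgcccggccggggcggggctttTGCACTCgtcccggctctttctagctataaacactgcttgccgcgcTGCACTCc
SLC30A1: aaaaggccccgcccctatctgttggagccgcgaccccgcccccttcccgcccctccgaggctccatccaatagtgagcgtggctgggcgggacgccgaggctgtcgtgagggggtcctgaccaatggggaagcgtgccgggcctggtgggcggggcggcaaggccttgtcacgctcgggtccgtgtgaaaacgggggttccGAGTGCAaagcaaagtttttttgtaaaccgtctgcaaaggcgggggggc
The MT2A sequence held 7 matches, 5 on the gene's strand and 2 on the other, and the MT1X sequence held 4, 3 on the gene's strand and 1 on the other. SLC30A1 had 1 match and MTF1 had 0. Among the metallothionein genes outside the 7, MT1H had 8 matches, and MT1B and MT4 had 3 each, although their transcripts were near the floor in both lines. How the number of matches relates to the response was not tested. Of 35116 upstream sequences of the same length, 24.8% held at least 1 match, 0.370% held at least 4 and 0.0313% held at least 7. A match describes the letters in this window and is not a measured binding site.

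The library totals implied by the RPKM values were 5829730 to 19191055 reads in MOLM-13 and 10595647 to 22344266 in NB4. The shallowest library was MOLM-13 FP54 replicate 2 at 5829730 reads, and in NB4 the FP54 libraries (10595647 to 13071303 reads) were all shallower than the DMSO libraries (20654055 to 22344266 reads). The depth and treatment of NB4 therefore cannot be told apart. The markers followed the labels in part. HOXA9, a gene kept high by MLL fusions, had a mean of 21.3 RPKM in MOLM-13 DMSO cells and 0.234 in NB4, and MPO, the peroxidase of promyelocyte granules, had 16.1 and 2170 RPKM. The other granule genes went against the promyelocytic label of NB4, since all 4 were higher in MOLM-13 than in NB4 DMSO cells, ELANE at 186 and 0.150 RPKM, AZU1 at 174 and 9.96, PRTN3 at 413 and 61.0, and CTSG at 116 and 58.5. T cell, B cell and erythroid markers each summed to at most 1.14 RPKM in any MOLM-13 library, and in NB4 the T cell list summed to 6.65 to 7.43 RPKM in DMSO and 12.1 to 12.6 in FP54 libraries. The epithelial list was the highest of these, at 5.02 to 8.98 RPKM in MOLM-13 and 20.1 to 24.3 in NB4. FTO, whose protein FP54 removes, had a mean of 1.01 RPKM in both MOLM-13 groups and of 2.73 (DMSO) and 2.03 (FP54) in NB4, which as a transcript does not check the degradation of the protein.

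In MOLM-13 cells, FP54 raised the transcripts of MT1X, MT2A and MT1F, while those of MTF1 and SLC30A1 did not pass the test. A gene was called when limma's p was below 0.01 and the fitted change on the log2(RPKM + 0.1) scale was at least 0.5, the cutoff the study used, among 9710 genes with a mean of at least 1 RPKM. By this rule 3 of the 7 genes were higher and 0 lower, against 9.30% of all tested genes higher and 18.3% in either direction. The same 3 had a limma adjusted p below 0.05, as did 19.2% of all tested genes. RPKM divides reads by gene length and library size, so it is a relative value and does not show a change in total RNA per cell. In these bulk samples a change within cells also cannot be told apart from a change in the mix of cells.

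MT2A, the most widely expressed human metallothionein, was at 10.4, 7.92 and 8.45 RPKM in the MOLM-13 DMSO libraries and at 33.2, 15.4 and 30.0 in the FP54 libraries. The lowest FP54 library lay above the highest DMSO library, which was so for 37.1% of all tested genes in either direction, 20.2% upward and 17.0% downward. The mean of MT2A went from 8.94 ± 1.33 (SD, n = 3) to 26.2 ± 9.51 RPKM, a log2 fold change of 1.48 (SE 0.26, limma adjusted p = 0.00644). MT1X was at 2.94, 1.81 and 1.40 RPKM in DMSO and at 7.60, 3.48 and 7.12 in FP54 libraries, again without overlap. Its log2 fold change of 1.50 (SE 0.33, limma adjusted p = 0.0134) was similar in size to that of MT2A, from a lower starting level. MT1X shares its strand with an overlapping long noncoding RNA, and 14.1% of the 80-base stretches of its transcripts also occur in another gene's transcripts, so some of its reads may be uncertain in origin. No 80-base stretch of MT2A (0 of 1076) or of MT1F (0 of 1964) did so.

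MT1F was at 3.39, 2.52 and 2.24 RPKM in DMSO and at 5.82, 3.43 and 4.94 in FP54 libraries. The groups were apart by a narrow margin, FP54 replicate 2 against DMSO replicate 1. Its log2 fold change was 0.77 (SE 0.23, limma adjusted p = 0.0436), and it was no longer called without DMSO replicate 2 or 3 or without FP54 replicate 1 or 3 (limma adjusted p = 0.0751 to 0.179), nor with no filter on low values (limma adjusted p = 0.0916). MT1E was at 11.7, 8.28 and 7.12 RPKM in DMSO and at 20.9, 9.78 and 21.5 in FP54 libraries, and MT1G was at 11.3, 4.00 and 6.99 in DMSO and at 13.2, 6.62 and 15.1 in FP54 libraries. Both sets overlapped because FP54 replicate 2 lay below DMSO replicate 1. Neither gene was called, with log2 fold changes of 0.88 for MT1E (95% interval 0.23 to 1.53, limma adjusted p = 0.0599) and 0.68 for MT1G (95% interval -0.15 to 1.50, limma adjusted p = 0.221). These intervals leave room for changes as large as that of MT2A.

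FP54 replicate 2 had the lowest value of the 3 FP54 libraries for all 5 metallothioneins and for SLC30A1, and it was also the shallowest library, with 35 recovered reads on MT1X and 82 on MT2A against 148 to 252 and 330 to 583 in the other two. The part of depth in this was not tested. Without that library 4 of the 7 genes were called, with MT1E added at a log2 fold change of 1.25 (limma adjusted p = 0.00785). Over all genes 1980 were then called, against 1781 with every library. DMSO replicate 1 had the highest value of the DMSO libraries for all 5 metallothioneins, and without it 5 of the 7 genes were called, the 5 metallothioneins. MT1G passed there on the unadjusted p only (limma adjusted p = 0.0693), and 1239 of all genes were called.

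Neither regulator was called. MTF1 was at 4.64, 4.15 and 4.21 RPKM in the MOLM-13 DMSO libraries and at 3.81, 4.06 and 4.38 in the FP54 libraries. These overlapped, with a log2 fold change of -0.08 (95% interval -0.42 to 0.25, limma adjusted p = 0.730). SLC30A1 was at 6.12, 8.29 and 5.19 RPKM in DMSO and at 9.62, 6.0 and 8.82 in FP54 libraries. Its log2 fold change was 0.31 (95% interval -0.18 to 0.80, limma adjusted p = 0.344), and DMSO replicate 2 lay above FP54 replicate 2. Without FP54 replicate 2 it was 0.52, still not called (limma adjusted p = 0.101).

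**Figure D1:**
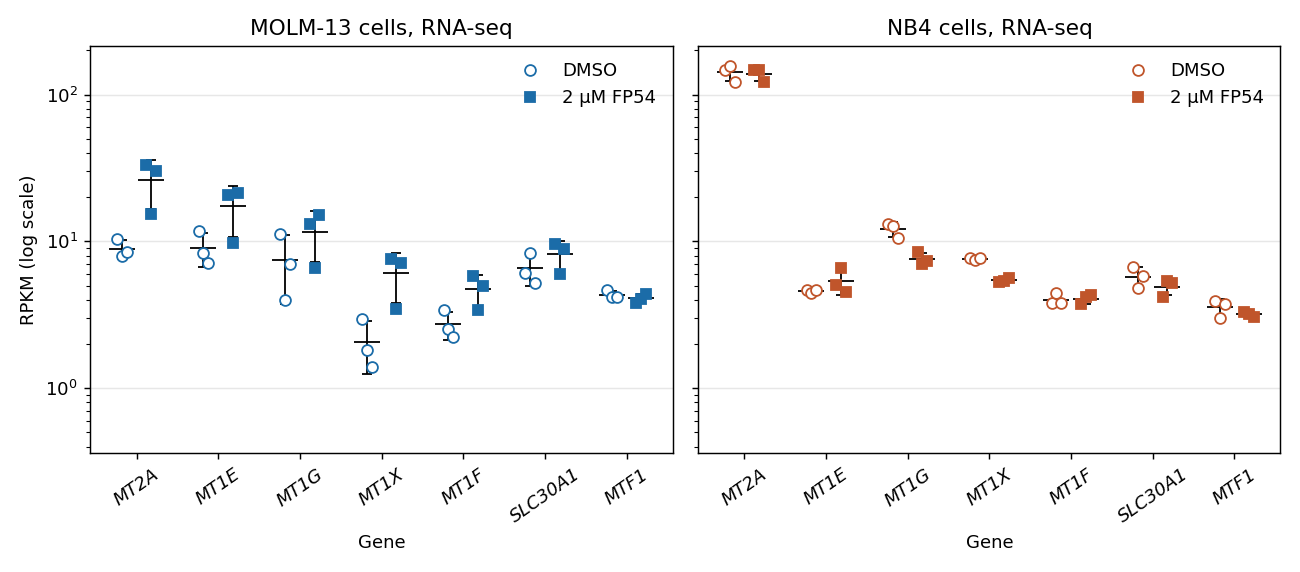
RPKM on a log scale of the 7 genes in each library of MOLM-13 (left) and NB4 (right), with open circles for DMSO and filled squares for FP54, and with black lines for the mean and SD of 3 libraries. In MOLM-13 the FP54 values of MT2A, MT1X and MT1F lie above all DMSO values, and in NB4 MT2A stays between 121 and 158 RPKM while MT1G and MT1X lie lower with FP54.

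In NB4 cells FP54 lowered the transcript of MT1G, and no metallothionein was called higher. By the same rule 1 of the 7 genes was lower and 0 were higher, against 10.7% of 9853 tested genes lower, 18.6% higher and 29.3% in either direction. All genes together had a median log2 fold change of 0.07 in NB4 and 0.00 in MOLM-13, and median-ratio scaling moved the NB4 median to -0.13. Quantile normalization moved it to -0.03.

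MT1G was at 13.2, 12.7 and 10.5 RPKM in the NB4 DMSO libraries and at 8.42, 6.98 and 7.33 in the FP54 libraries. All FP54 libraries lay below all DMSO libraries, as was so for 26.2% of all tested genes, while 34.3% were apart upward and 60.5% in either direction. The log2 fold change of MT1G was -0.67 (SE 0.11, limma adjusted p = 0.000733). MT1X was at 7.65, 7.47 and 7.75 RPKM in DMSO and at 5.25, 5.37 and 5.63 in FP54 libraries. These did not overlap either, but the log2 fold change of -0.49 (SE 0.09, limma adjusted p = 0.00126) fell just short of the required size, and it passed without DMSO replicate 2 or FP54 replicate 3, and with median-ratio scaling at -0.68. With a cutoff on the adjusted p alone, which 51.8% of all tested genes passed, both MT1G and MT1X counted as lower.

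MT2A was the highest of the 7 genes in NB4, at 147, 158 and 121 RPKM in the DMSO libraries and at 146, 147 and 122 in the FP54 libraries. The ranges nearly coincided, with a log2 fold change of -0.03 (95% interval -0.29 to 0.22, limma adjusted p = 0.832). MT2A had 2472 to 3068 recovered reads in the DMSO and 1418 to 1564 in the FP54 libraries. The authors removed duplicate reads, and the part of that in these MT2A values was not tested. MT1E was at 4.65, 4.46 and 4.68 RPKM in DMSO and at 5.02, 6.62 and 4.51 in FP54 libraries. MT1F was at 3.82, 4.43 and 3.79 RPKM in DMSO and at 3.72, 4.18 and 4.30 in FP54 libraries. Both overlapped, with 95% intervals of the log2 fold change of -0.10 to 0.51 for MT1E and -0.23 to 0.27 for MT1F. The sign of the MT1F and MT2A values changed with the normalization.

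MTF1 in NB4 was at 3.95, 2.98 and 3.72 RPKM in DMSO and at 3.28, 3.19 and 3.07 in FP54 libraries, with a log2 fold change of -0.14 (95% interval -0.42 to 0.13, limma adjusted p = 0.356). SLC30A1 was at 6.67, 4.79 and 5.78 RPKM in DMSO and at 4.20, 5.37 and 5.21 in FP54 libraries, with a log2 fold change of -0.22 (95% interval -0.53 to 0.10, limma adjusted p = 0.224). For both genes the groups overlapped and neither was called in either line. With median-ratio scaling the NB4 values were -0.34 for MTF1 (limma adjusted p = 0.0269) and -0.41 for SLC30A1 (limma adjusted p = 0.0154), and with quantile normalization they were -0.38 for both (limma adjusted p = 0.0147 and 0.0229), under the fold size of the rule but over 1.5 times larger than with RPKM as deposited. Without DMSO replicate 2 they were -0.26 (limma adjusted p = 0.0424) and -0.34 (limma adjusted p = 0.0334).

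**Figure D2:**
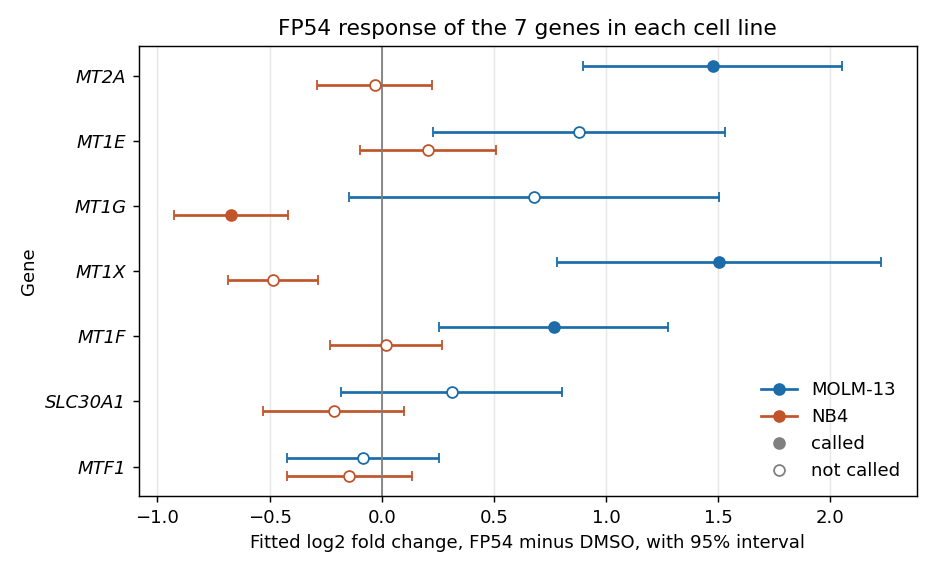
Fitted log2 fold change (FP54 minus DMSO, log2(RPKM + 0.1) scale) of the 7 genes with 95% intervals, blue for MOLM-13 and orange for NB4, filled where called. MT2A and MT1X lie at 1.48 and 1.50 in MOLM-13 and at -0.03 and -0.49 in NB4.

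The FP54 response of MT1X and MT2A differed between the lines. In 1 fit over the 12 libraries, 2 of the 7 genes had a response that was lower in NB4 than in MOLM-13 at an adjusted p below 0.05, against 3.75% of 8849 genes lower and 14.2% in either direction. The difference, NB4 minus MOLM-13, was -1.99 for MT1X (SE 0.38, limma adjusted p = 0.00254) and -1.51 for MT2A (SE 0.32, limma adjusted p = 0.00558) on the log2 scale. MT1G was lower in NB4 and had a positive value in MOLM-13, and its difference was -1.35 (95% interval -2.31 to -0.39, limma adjusted p = 0.0585). MT1F, at -0.75 (limma adjusted p = 0.0786), MT1E, at -0.68 (limma adjusted p = 0.240, and -1.17 to -0.20 with libraries left out), and SLC30A1, at -0.53 (limma adjusted p = 0.242), did not pass either. MTF1 had the smallest difference, -0.06 (95% interval -0.46 to 0.34). The count depended on the libraries used. It was 5 without MOLM-13 FP54 replicate 2, the only library left out singly in this fit, where all 5 metallothioneins passed. Leaving out replicate 2 of every group also gave 5, where SLC30A1 passed at -1.10 (limma adjusted p = 0.00861) and MT1F did not. Leaving out replicate 1 of every group gave 1, where MT2A no longer passed (limma adjusted p = 0.0558).

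The levels of the 7 genes are given side by side, with no test between lines, since the tables were normalized separately. In MOLM-13 DMSO cells the order of mean RPKM was MT1E (9.04), MT2A (8.94), MT1G (7.42), SLC30A1 (6.54), MTF1 (4.33), MT1F (2.72) and MT1X (2.05). The ranges of neighbours in this order overlapped from MT1E to SLC30A1 and between MT1F and MT1X, and were apart elsewhere. In MOLM-13 FP54 cells MT2A came first (26.2), followed by MT1E (17.4), MT1G (11.6), SLC30A1 (8.14), MT1X (6.07), MT1F (4.73) and MTF1 (4.08), and every pair of neighbours overlapped. In NB4 DMSO cells MT2A (142) was followed by MT1G (12.2), MT1X (7.63), SLC30A1 (5.75), MT1E (4.60), MT1F (4.02) and MTF1 (3.55), and only MT1F and MTF1 overlapped as neighbours. In NB4 FP54 cells the order was MT2A (138), MT1G (7.58), MT1X (5.42), MT1E (5.38), SLC30A1 (4.92), MT1F (4.06) and MTF1 (3.18), with overlaps between neighbours from MT1X to MT1F.

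Of the summed RPKM of the 5 metallothioneins, MT2A took 26.3% to 32.3% in the MOLM-13 DMSO libraries and 38.2% to 41.2% in the FP54 libraries, without overlap. In NB4 it took 81.9% to 84.4% in DMSO and 84.8% to 86.7% in FP54 libraries. The MT1G share in NB4 was 6.80% to 7.51% in DMSO and 4.10% to 5.12% in FP54 libraries. The sum itself went from 24.5 to 39.8 RPKM in DMSO to 38.7 to 80.7 in FP54 libraries of MOLM-13, where FP54 replicate 2 lay below DMSO replicate 1, and from 147.8 to 186.6 to 143.3 to 170.2 in NB4, where the groups overlapped. So the higher MOLM-13 values with FP54 stayed below every NB4 sum.

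**Figure D3:**
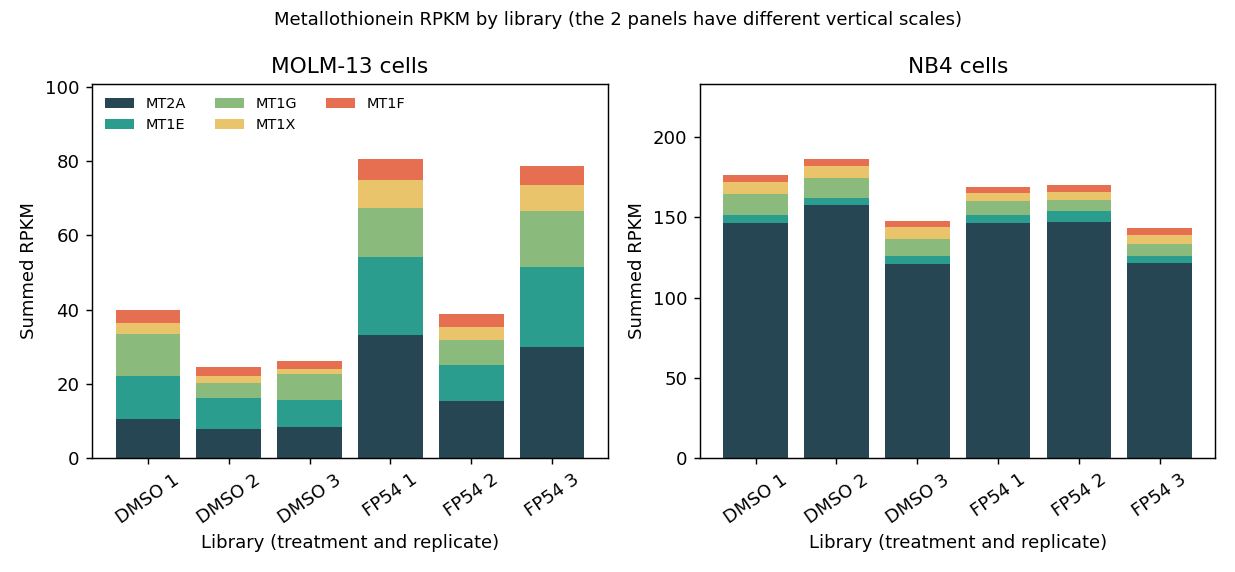
Summed RPKM of the 5 metallothioneins in each library, stacked by gene, for MOLM-13 (left) and NB4 (right), on different vertical scales. MT2A takes at most 41.2% of a MOLM-13 library's sum and at least 81.9% of an NB4 library's sum.

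The remaining metallothionein genes were near the floor. None of the 7 (MT1A, MT1B, MT1H, MT1HL1, MT1M, MT3 and MT4) reached a mean of 1 RPKM over the 6 libraries of either line, and 3 of them were listed at 0 in all MOLM-13 libraries and 3 in all NB4 libraries. MT1H had 4, 3 and 0 recovered reads in the MOLM-13 DMSO libraries and 20, 3 and 9 in the FP54 libraries, where its mean was 1.06 RPKM, and it was listed at 0 in every NB4 library. MT1G shares 13 of its 896 80-base stretches with MT1H. MT4, which is mainly known from stratified epithelium, was listed at 0 RPKM in all NB4 DMSO libraries and at 0.350, 0.637 and 0.283 in the FP54 libraries, which were 1, 2 and 1 recovered reads. In the same NB4 libraries 415 olfactory receptor genes, which blood cells hardly express, averaged 0.00169 to 0.00373 RPKM with DMSO and 0.0497 to 0.0548 with FP54, and the part of that rise in the low values of MT4 was not tested.

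Among the zinc exporters of the ZnT family other than SLC30A1 no tested gene was called. Of 9 genes 4 (SLC30A5, SLC30A6, SLC30A7 and SLC30A9) were tested in each line and 0 were called, with medians of the log2 fold change of -0.09 in MOLM-13 and 0.04 in NB4. Zinc importers of the ZIP family had 2 of 10 tested genes lower and 0 higher in MOLM-13, against 9.04% of all tested genes lower and 9.30% higher, with a median of -0.43 beside 0.00 over all genes. SLC39A14, which carries zinc, iron and manganese, was at 9.87, 4.09 and 7.94 RPKM in MOLM-13 DMSO and at 0.671, 1.71 and 2.85 in FP54 libraries. This was the largest change in either direction among all listed zinc and copper genes tested, a log2 fold change of -2.12 (limma adjusted p = 0.0127). SLC39A6, a zinc importer of the cell surface, went from 14.8 ± 2.53 to 9.40 ± 1.49 RPKM (SD, n = 3), a log2 fold change of -0.64 (limma adjusted p = 0.0308). In NB4 1 of 9 tested importers was higher, SLC39A13 (0.78, limma adjusted p = 0.00178), and 1 was lower, SLC39A3 (-0.52, limma adjusted p = 0.00946), against 18.6% of all tested genes higher and 10.7% lower, with a median of -0.04 beside 0.07 over all genes. SLC39A13 was low, with means of 1.62 (DMSO) and 2.84 RPKM (FP54), and was no longer called higher in NB4 with quantile normalization. The response of SLC39A14 differed between the lines by 2.04 (limma adjusted p = 0.0202) and that of SLC39A6 by 0.86 (limma adjusted p = 0.0163), both higher in NB4, the opposite direction to MT1X and MT2A.

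Copper handling genes were listed because metallothioneins also bind copper. ATP7A and ATP7B had a mean under 1 RPKM in both lines and were not tested. ATP7A had means of 0.672 (DMSO) and 1.16 RPKM (FP54) in MOLM-13 and 0.236 and 0.518 in NB4. ATP7B had 0.0276 and 0.0267 in MOLM-13 and 0.551 and 0.932 in NB4. Their FP54 values lay above all DMSO values, except for ATP7B in MOLM-13, whose groups overlapped. The shares of 20.2% (MOLM-13) and 34.3% (NB4) apart upward cover only genes with a mean of at least 1 RPKM. They are therefore no background for ATP7A and ATP7B. With no filter on low values, the genes called higher in NB4 went from 1834 to 4967. The part of that rise in ATP7A and ATP7B was not tested. In MOLM-13 1 of 10 tested genes was higher and 1 lower, near the 9.30% and 9.04% of all tested genes, with a median log2 fold change of 0.01. The higher gene was CCS, the copper chaperone of superoxide dismutase, from 17.4 ± 2.45 to 31.7 ± 5.96 RPKM (SD, n = 3), a log2 fold change of 0.86 (limma adjusted p = 0.0108). The lower was SCO1, a copper chaperone of cytochrome c oxidase, with -0.69 (limma adjusted p = 0.0458). In NB4 2 of 10 were lower and 0 higher, against 10.7% and 18.6% of all tested genes, with a median of -0.31, and these were SCO2, a paralog of SCO1, with -0.67 (limma adjusted p = 0.000564), and SOD1, the copper-zinc superoxide dismutase, with -0.62 (limma adjusted p = 0.000284). Over the exporter, importer and copper lists together 4 genes were called in each line, of 24 tested in MOLM-13 and 23 in NB4, where 18.3% and 29.3% of all tested genes were called, so these shares were near or below the background. The MOLM-13 count was 2 without DMSO replicate 1, DMSO replicate 3 or FP54 replicate 1. Over all genes 1239, 1055 and 1043 were then called, against 1781 with every library.

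**Figure D4:**
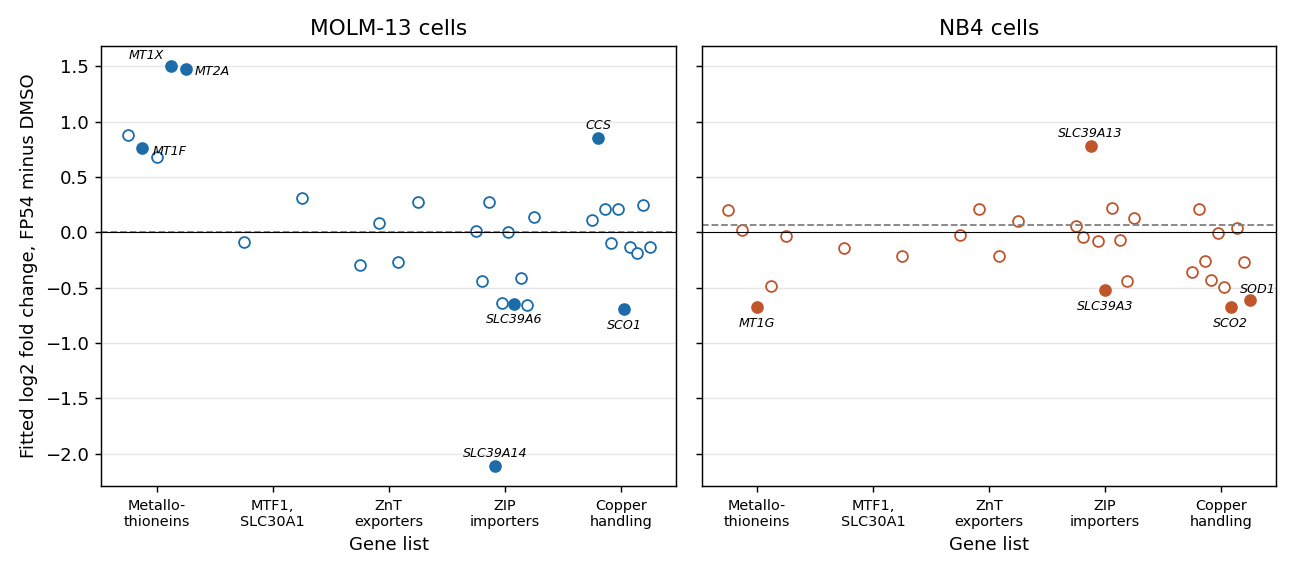
Fitted log2 fold change (FP54 minus DMSO) of the tested genes by list, 1 point a gene, for MOLM-13 (left) and NB4 (right), filled and named where called. The dashed line is the median of all tested genes, 0.00 in MOLM-13 and 0.07 in NB4, and the lowest point is SLC39A14 at -2.12.

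Genes with profiles like these were ranked by Pearson's r over the 12 libraries, after centring log2 values within each line, as a description. The libraries share their treatment and depth, so many genes reach a high r. Closest to the mean of the 5 metallothioneins were GEMIN7 (r = 0.960), SNAPIN (0.956), IRS2 (0.955), RNF135 (0.945) and MAP3K5 (0.943) among 8844 genes. GEMIN7, a subunit of the SMN complex that assembles spliceosomal particles, had means of 5.55 and 9.35 RPKM in MOLM-13 DMSO and FP54 cells and of 3.32 and 2.7 in NB4. Closest to MTF1 were CKAP5 (0.922), FAM120A (0.916), ZBTB11 (0.888), TAF2 (0.881) and TOPBP1 (0.877), and closest to SLC30A1 were LRRC37B (0.930), MAPRE2 (0.919), DBT (0.907), PIAS1 (0.900) and SIKE1 (0.895), each among 8843 genes. None of the 3 groups of 5 shared a gene with another.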

How the data were processed

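RNA-seq of 12 libraries was analysed. Per the labels and the methods, the authors trimmed reads with cutadapt (4.8), removed duplicate reads, aligned with STAR (2.7.11b) to hg38 and counted reads on protein-coding genes with featureCounts (2.0.3), and they deposited 1 table of RPKM values for each cell line. Removing duplicates can lower the values of short, abundant transcripts such as MT2A. From RPKM and merged exon lengths (GENCODE annotation, 20330 genes with a length), whole reads were recovered, and 98.6% to 98.9% of values of 1 to 200 reads were whole within 0.05 read. Positions are from the same annotation, and shared stretches were counted over its transcripts.

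Genes with a mean of at least 1 RPKM were tested on log2(RPKM + 0.1) with limma (3.58.1, R 4.3.3), with an intensity trend, within each line and, for the difference in response, over both lines, with Benjamini-Hochberg adjustment over all genes tested. Alternatives were other pseudocounts, filters, scalings, cutoffs, a replicate block, limma-voom on recovered reads, and, within each line, each library left out. For the difference in response, each replicate number was left out of every group, and MOLM-13 FP54 replicate 2 was left out alone. The metallothionein and zinc genes and the lists were chosen with earlier results of these data known. Named from each list were up to 3 called genes with the largest change per line, and the 5 genes of highest r per profile. Motif matches rest on letters alone.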

Additional observations from a re-analysis of the deposited data

Results flagged for a closer look

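The FP54 response of 2 metallothioneins differed between the cell lines by a test of the difference itself. For MT1X the difference in log2 fold change, NB4 minus MOLM-13, was -1.99 (95% interval -2.79 to -1.19, limma adjusted p = 0.00254), with higher values in 3 of 3 MOLM-13 FP54 libraries and lower values in 3 of 3 NB4 FP54 libraries than in any DMSO library of the line. For MT2A it was -1.51 (95% interval -2.19 to -0.83, limma adjusted p = 0.00558), with 3 of 3 MOLM-13 FP54 libraries higher and overlapping groups in NB4. MT2A started from 8.94 RPKM in MOLM-13 and 142 RPKM in NB4, and the part of this starting level, or of the removal of duplicate reads, was not tested.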

How the results depend on the processing

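With 3 libraries a group and 35 to 82 recovered reads on MT1X and MT2A in the shallowest library, intervals are wide, and genes with under 1 RPKM were not tested. Of 340 values of single genes under the alternatives, 298 kept their direction and their side of the cutoff, 24 newly passed it, 8 no longer passed it and 10 changed sign. MT1X and MT2A were called in MOLM-13 under every alternative in which they were tested, by a rule that uses the unadjusted p except in the cutoff on the adjusted p alone. The limma adjusted p of MT1X rose above 0.05 when FP54 replicate 1 was dropped (0.0751) or when DMSO replicate 3 was dropped (0.0504). For MT2A the highest limma adjusted p under any alternative was 0.0387.

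In MOLM-13 the count of the 7 genes called was 3. It was 1 with a filter at 5 RPKM, which leaves MT1X and MT1F untested, 2 with no filter, where MT1F was lost, 4 with quantile normalization or limma-voom on recovered reads, where MT1E was gained, and 2 to 5 with 1 library left out. Over all genes the MOLM-13 count of 1781 was 1069, 1968, 1925, 1901 and 1043 to 2149 in the same order. In NB4 the count was 1. It was 2 with median-ratio scaling, quantile normalization or a cutoff on the limma adjusted p alone, 0 when p was relaxed to 0.05 and the log2 fold change raised to 1 together, and 1 to 2 with 1 library left out. For the difference between lines the count was 2. It was 1 with the filter at 5 RPKM, 4 with median-ratio or quantile scaling, and 1 to 5 with libraries left out, of which leaving out MOLM-13 FP54 replicate 2 alone (5) was chosen after seeing the data.

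Over the other zinc and copper genes the MOLM-13 count of 4 was 2 with the filter at 5 RPKM, 1 with that joint change of cutoffs and 2 to 6 with 1 library left out. Over all genes the MOLM-13 count of 1781 was 1069, 565 and 1043 to 2149 in the same order. The NB4 count of 4 was 9 with no filter, 6 of them higher, and 2 with the filter at 5 RPKM. It was 8 with median-ratio scaling and 6 with quantile normalization, 0 of them higher. With a cutoff on the adjusted p alone it was 9, with the joint change of cutoffs 0, and with 1 library left out 3 to 5. Over all genes the NB4 count of 2884 was 6059 (4967 higher), 1627, 3192, 2643, 5099, 813 and 2689 to 3267 in the same order. The filter also changes how many genes are tested. The causes were not tested.

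Values near 0 changed sign. NB4 MT1F was -0.18 with median-ratio scaling, -0.19 with quantile normalization and -0.022 to 0.090 with 1 library left out. NB4 MT2A was 0.20 with quantile normalization and -0.14 to 0.058 with 1 library left out. The difference for MTF1 was -0.15 to 0.072 with libraries left out.

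The replicate numbers were shared between DMSO and FP54, but same-numbered libraries did not deviate together. Their r was -0.26, -0.13 and -0.06 in MOLM-13 and -0.14, 0.07 and 0.12 in NB4, so the numbers were not taken as pairs. Some differently numbered MOLM-13 libraries did, with r = 0.59 (DMSO 1 with FP54 3), 0.49 (DMSO 2 with FP54 1) and 0.47 (DMSO 3 with FP54 2). The other such MOLM-13 pairs had r = -0.46 to -0.27. With the replicate block the count was 5 in MOLM-13, 1 in NB4 and 3 for the difference, and 5 and 4 for the other zinc and copper genes.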
